A study of Mus musculus with 2 samples.

Results

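Complement is a cascade of plasma and tissue proteins that tags damaged cells and debris for removal and recruits inflammatory cells. C1q binds to a surface and, with the proteases C1r and C1s, cleaves C4 and C2 (the classical pathway), factor B carries the alternative pathway, and both pathways meet at C3. Macrophages and dendritic cells are the main known sources of C1q. The liver makes most of the other components found in plasma, and fibroblasts and other stromal cells also make C3, C4, factor B and the C1 inhibitor. Described here are 8 complement genes in the fracture callus, found by their symbols among the 19430 genes of the count tables: *C1qa*, *C1qb* and *C1qc*, which encode the C1q chains, *C1ra* (C1r), *C3*, *C4b*, *Cfb* (factor B) and *Serping1* (the C1 inhibitor). All 8 genes were in the tables and passed the minimum of 50 unique molecular identifiers (UMIs) per section that was set for comparisons.

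A control mouse with 1 floxed *Nf1* allele and no Cre (*Nf1*+/fl) was set against an Nf1Postn littermate (*Postn*-cre;*Nf1* flox/-), both female and 8 weeks old. In the Nf1Postn mouse the periostin promoter, which is active in the periosteum, drives the Cre recombinase that deletes the floxed allele, and the other allele is null in all cells. The distal tibia was fractured and held with an intramedullary pin, and after 10 days both calluses were fixed in formalin, decalcified in 14% EDTA for about 3 days and embedded in the same block. The labels number the 2 samples as biological replicates, whereas the series description speaks of a pair of sections cut through calluses that shared a block. These sources do not settle whether the samples hold separate animals. They were handled as section 1 and section 2 of 1 mouse per genotype, so that no test between genotypes was run, and a difference between mice cannot be told apart from one between genotypes. Levels are given as CPM, the UMIs of a gene per 1000000 UMIs of the same spots, with exact Poisson 95% intervals, and ratios carry exact binomial 95% intervals. All these intervals cover counting error only.

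Visium spots hold several cells of different types, so that fewer cells of a type and less RNA per cell cannot be told apart. The control callus had 1700 and 1778 spots with medians of 7053 and 5718.5 UMIs per spot in sections 1 and 2, and the Nf1Postn callus had 1341 and 1556 spots with medians of 2030 and 3239.75. The calluses also differed in tissue. The summed level of 8 muscle markers was 17816 and 26647 CPM in control and 79355 and 140651 CPM in Nf1Postn, and that of 8 cartilage markers was 48025 and 30613 CPM in control and 4756 and 8766 CPM in Nf1Postn. *Nf1* itself was counted at 87.8 and 79.0 CPM in the control sections and at 65.6 and 49.6 CPM in the Nf1Postn sections. Where its probes lie relative to the deleted exons is not given in the sources used here, so this level is not a check of the deletion. The 8 osteoblast markers summed to 18350 to 42036 CPM. Most of this came from the collagen gene *Col1a1*, at 37026 CPM in control and 19441 CPM in Nf1Postn over both sections. All 8 were lower in Nf1Postn over both sections pooled, 5 of them at least 2-fold in each section. The 7 liver markers summed to 4.54 to 13.9 CPM.

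By the coordinates of the count tables (mm39), the C1q chains lie next to each other on chromosome 4, *C1qb* at 136607440 to 136613499, *C1qc* at 136617115 to 136620377 and *C1qa* at 136623228 to 136626115, all within 18.7 kb. *C3* lies on chromosome 17 at 57510970 to 57535137, *C4b* on the same chromosome at 34947354 to 34962857 and *Cfb* at 35075350 to 35081495, in the major histocompatibility complex. *C1ra* lies on chromosome 6 at 124489364 to 124500403 and *Serping1* on chromosome 2 at 84595731 to 84605789. *C4b* and *C1ra* have near-identical neighbors (*C4a* and *C1rb*), and probes that bind both copies would count both, so the levels of *C4b* and *C1ra* are uncertain. *C1rb* was counted separately, at 0.82 CPM in control and 0.74 CPM in Nf1Postn over both sections, against 17.5 and 17.6 CPM for *C1ra*. Whether the probes of *C1ra* also bind *C1rb* is not given in the sources used here. The 250 bases before the RefSeq start site are shown for *C1qb* and *C1qc*, neighbors with similar patterns over the callus, and for *C3*, which was less like them, in the build GRCm38.p6, which is not the build of the count tables. The windows are chr4:136886201-136886450 (*C1qb*), chr4:136892915-136893164 (*C1qc*) and chr17:57228137-57228386 (*C3*), all on the minus strand and written 5′ to 3′. Capitals mark matches on either strand to AGGAAGT, an ETS-type motif, or to TTGCNNAA, a motif of the C/EBP type.
C1qb: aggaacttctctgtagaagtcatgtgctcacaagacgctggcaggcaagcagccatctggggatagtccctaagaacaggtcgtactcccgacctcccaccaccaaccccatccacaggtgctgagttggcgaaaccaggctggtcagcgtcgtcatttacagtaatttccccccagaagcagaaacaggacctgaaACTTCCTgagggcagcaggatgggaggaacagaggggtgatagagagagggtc
C1qc: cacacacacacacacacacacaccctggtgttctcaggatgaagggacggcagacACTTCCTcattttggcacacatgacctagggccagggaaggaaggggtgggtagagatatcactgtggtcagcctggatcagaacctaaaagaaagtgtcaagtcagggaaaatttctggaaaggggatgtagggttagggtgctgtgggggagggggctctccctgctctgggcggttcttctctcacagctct
C3: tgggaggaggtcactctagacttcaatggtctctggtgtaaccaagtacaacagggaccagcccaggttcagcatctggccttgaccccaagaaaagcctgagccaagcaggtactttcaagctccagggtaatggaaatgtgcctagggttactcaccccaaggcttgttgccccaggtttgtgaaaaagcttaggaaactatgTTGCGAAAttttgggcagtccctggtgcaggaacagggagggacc

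The C1q windows each held 1 match to the ETS-type motif on the opposite strand, at -53 to -47 in *C1qb* and at -195 to -189 in *C1qc*. The *C3* window held 1 match to the C/EBP-type motif, at -45 to -38. Of the 32851 RefSeq promoter windows of this length, 7.69% held the ETS-type and 9.56% the C/EBP-type motif. The *C1ra* window, the other one in the table, held no match to either, and *C1qa*, *C4b*, *Cfb* and *Serping1* had no window in the table. A match is a description of the sequence and not a binding site.

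Over all spots, *C3* was the only gene of the 8 that was at least 2-fold lower in the Nf1Postn callus in both sections, and none was at least 2-fold higher in both. Among the 11851 genes with enough UMIs, 1.58% were at least 2-fold lower and 4.21% at least 2-fold higher in both sections. *C3*, the component that both pathways cleave, was counted at 93.9 CPM (88.8 to 99.2) and 114 CPM (109 to 121) in the control sections and at 33.8 CPM (27.9 to 40.5) and 30.1 CPM (25.8 to 34.8) in the Nf1Postn sections. Both Nf1Postn values lay below both control values, with log2 ratios of -1.47 and -1.93.

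The C1q chains showed no such difference. *C1qa* was counted at 303 and 375 CPM in control and at 362 and 285 CPM in Nf1Postn, *C1qb* at 149 and 184 CPM against 162 and 136 CPM, and *C1qc* at 169 and 218 CPM against 200 and 146 CPM. For each chain the Nf1Postn callus was the higher one in section 1 and the lower one in section 2. The log2 ratio of *C1qa* was 0.26 in section 1 and -0.40 in section 2, so that the section decided its sign.

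*Serping1*, the inhibitor of C1r and C1s, followed the C1q chains, with 185 and 221 CPM in control and 243 and 182 CPM in Nf1Postn. *C1ra* was counted at 15.4 and 19.8 CPM in control and 16.5 and 18.2 CPM in Nf1Postn, and the intervals of the genotypes overlapped in both sections. *C4b*, cleaved by C1s, was counted at 81.4 and 65.8 CPM in control and 50.5 and 39.9 CPM in Nf1Postn. The control values of *C4b* were the higher ones in both sections, but its log2 ratios of -0.69 and -0.72 were short of 2-fold. *Cfb* was at 40.0 and 57.4 CPM in control and at 35.5 and 20.4 CPM in Nf1Postn, near equal in section 1 and 2-fold apart only in section 2 (log2 ratios of -0.17 and -1.49). Over the 8 genes the median log2 ratio was 0.11 in section 1 and -0.50 in section 2, against medians of 0.06 and -0.21 over all 11851 genes. The 5 regions with muscle markers above 100000 CPM (2, 9, 11, 13 and 14, from a clustering described further on) hold more of the Nf1Postn UMIs. Without them the log2 ratio over both sections was -1.29 for *C3* in place of -1.72, -0.11 for *C4b* in place of -0.76, and 0.54 for *Serping1* in place of 0.02. Among those left out was region 11, where *C3*, *C4b* and *Cfb* were 7.22-, 4.67- and 4.98-fold lower in Nf1Postn. These ratios thus do not show the part of muscle alone.

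**Figure D1:**
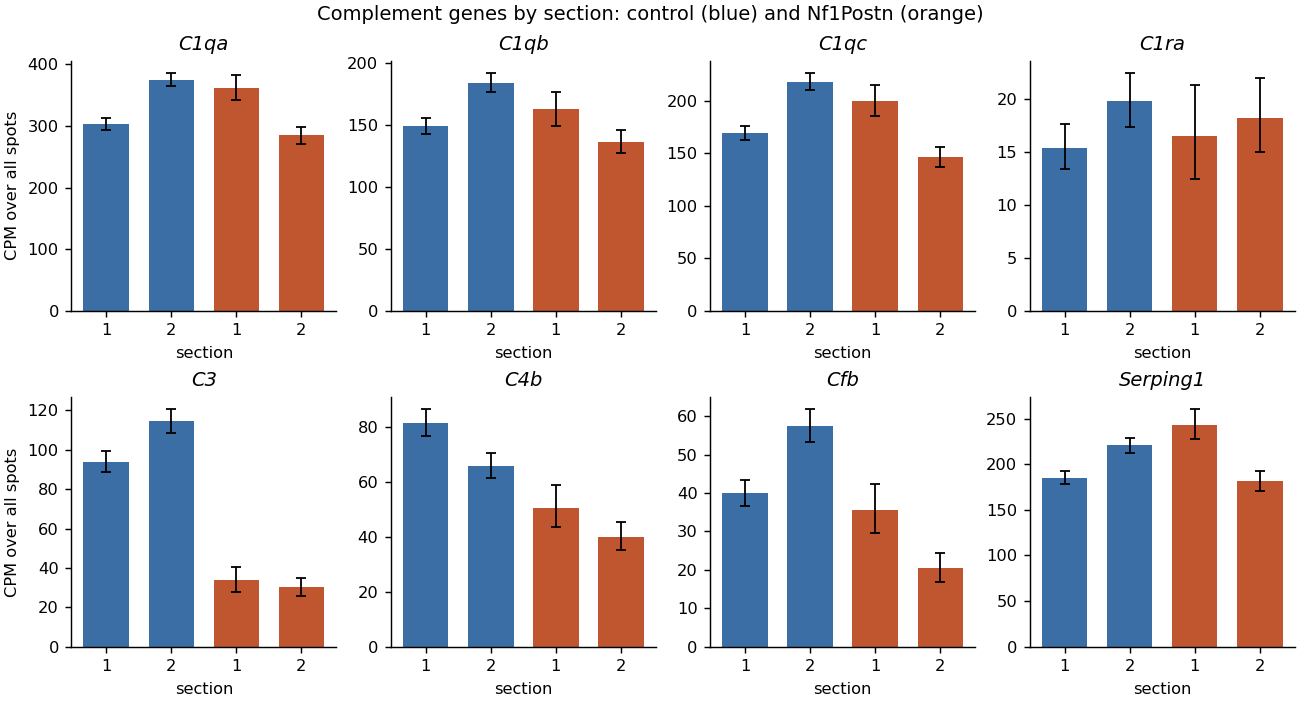
Level of each complement gene in CPM (y axis, from 0) over all spots of section 1 and section 2 (x axis), control in blue and Nf1Postn in orange, with exact Poisson 95% intervals that cover counting error only. *C3* stood at 93.9 and 114 CPM in control and at 33.8 and 30.1 CPM in Nf1Postn, whereas the C1q chains and *Serping1* changed order between sections.

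Among a list of 46 other complement genes, 44 were measured, with *C1s1* and *C4a* not analysed here, and 20 had enough UMIs. Of these 20, 0 were at least 2-fold lower and 1 at least 2-fold higher in Nf1Postn in both sections, against 1.58% and 4.21% of all 11851 genes. Both counts are thus near the share over all genes. The median log2 ratio of the 20 genes was 0.26 in section 1 and -0.16 in section 2. The higher one was *Vtn*, which encodes vitronectin, a plasma and matrix protein that holds the terminal complex in check, with 41 and 57 UMIs in control and 35 and 57 UMIs in Nf1Postn (log2 ratios of 1.74 and 1.02). Of the 5 tested genes of the classical and lectin pathways, *C2*, the partner of C4, had log2 ratios of 0.72 and -0.70, *Masp1*, a lectin pathway protease, of -0.13 and -0.46, and *Fcna*, a ficolin, of 0.59 and -0.04. The signs of *C2* and *Fcna* thus depended on the section. The alternative pathway gene *Cfp*, which encodes properdin, had log2 ratios of 0.23 and -0.35. *Cfd*, which encodes factor D, the protease that cleaves factor B and a product of adipocytes, had 1008 UMIs in control section 1 and 77 in Nf1Postn section 1 (log2 ratio of -1.74), but its log2 ratio in section 2 was -0.06.

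Among 6 tested receptor genes, *Cd93* had log2 ratios of 0.14 and -0.39, *Itgb2*, the shared chain of complement receptors 3 and 4, of 0.43 and -0.42, and *C3ar1*, the C3a receptor, of 0.21 and -0.81. None of these receptors kept its sign. Of the 7 tested regulators, *Clu* (clusterin) had log2 ratios of -0.07 and 0.62, and *Cd55* (decay accelerating factor) of 0.88 and 0.82. None of the 7 terminal component genes had enough UMIs, and their summed level was 4.45 to 14.7 CPM.

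Within the control callus the 8 genes shared a pattern over tissue. Deposited skeletal clusters covered 1344 control spots, all of section 1. All 8 genes had their highest value in the progenitor cluster. For *C1ra* (23.3 CPM, 13.8 to 36.8) the interval overlapped that of the ossifying perichondrium (20.9 CPM, 17.2 to 25.1). The progenitor intervals of *C1qb*, *C1ra* and *Cfb* also overlapped those of the distal cortical bone. *C3* was at 285 CPM in the 146 progenitor spots, 106 CPM in the 409 spots of the ossifying perichondrium, 43.8 CPM in the 273 cartilage spots and 47.6 CPM in the 466 woven bone spots. *C4b* was at 276, 89.2, 40.0 and 39.2 CPM in these clusters. The intervals of cartilage and woven bone overlapped for *C3* and for *C4b*, and those of the progenitor cluster and the perichondrium stood apart from them and from each other.

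The C1q chains differed from *C3* and *C4b* in woven bone. *C1qa* was at 594 CPM in progenitor, 338 CPM in ossifying perichondrium, 239 CPM in woven bone and 128 CPM in cartilage spots, so that woven bone lay above cartilage. *C1qb* and *C1qc* had the same order, and *C1qc* was at 292, 192, 145 and 62.2 CPM. *Serping1* was at 435 CPM in progenitor and 222 CPM in ossifying perichondrium spots, and at 103 CPM in cartilage and 92.6 CPM in woven bone, with overlapping intervals for the last pair. The summed level of 12 macrophage markers was 803 CPM in progenitor, 554 CPM in perichondrium, 756 CPM in woven bone and 322 CPM in cartilage spots, and that of 10 fibroblast markers was 4630, 2715, 1877 and 1482 CPM. Their part in the levels of the complement genes was not tested.

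**Figure D2:**
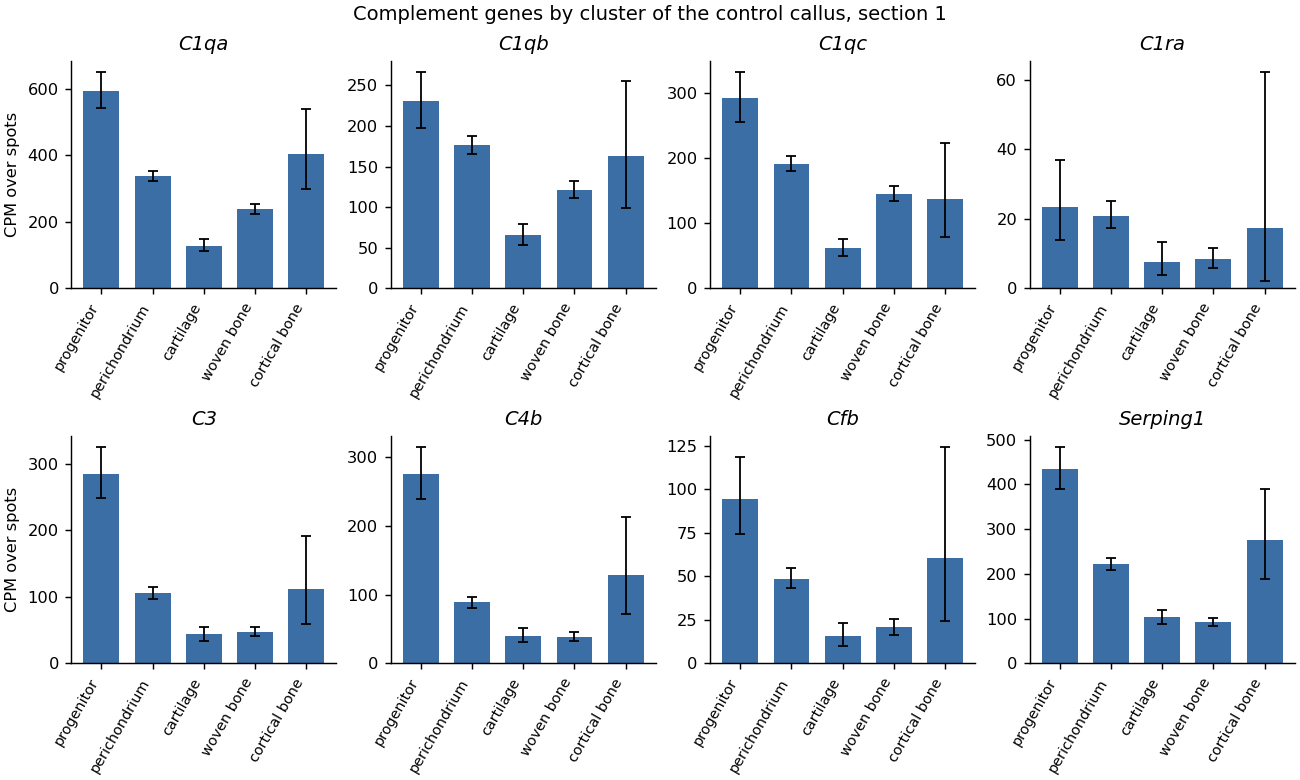
Level of each complement gene in CPM (y axis, from 0) in the control callus of section 1, by the deposited skeletal cluster of each spot (x axis), with exact Poisson intervals. All 8 genes had their highest value in progenitor spots, *C3* at 285 CPM, but the *C1ra* intervals of progenitor and perichondrium spots overlapped. *C1qa* was at 239 CPM in woven bone and 128 CPM in cartilage. The cortical bone bars rest on 50 spots.

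These spots also carried a SpatialTime, a scale of relative distance from the fracture plane. From the spots with values 0 to 4, nearest the fracture, to those with values 20 to 25, *C3* went from 49.6 to 137 CPM and *C4b* from 51.6 to 160 CPM, log2 ratios of 1.47 (1.16 to 1.77) and 1.63 (1.34 to 1.92). *C3* was at 95.8, 105 and 95.7 CPM in the bins between. *Serping1* and *C1qa* had log2 ratios of 0.75 (0.57 to 0.93) and 0.54 (0.38 to 0.70), while the intervals of *C1qb*, *C1ra* and *Cfb* included 0. The tissue differed along this axis as well. From the nearest to the farthest bin, the cartilage markers went from 101968 to 8552 CPM, the fibroblast markers from 2209 to 3846 CPM and the adipocyte markers from 347 to 1020 CPM, and their part in the levels of the complement genes was not tested.

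This difference along the axis was also present within single clusters, in which near (0 to 12) and far (13 to 25) spots were set against each other. Within woven bone, *C3* was at 32.3 CPM near and 58.4 CPM far from the fracture, and *C4b* at 24.6 and 49.4 CPM. Within the ossifying perichondrium, *C3* was at 94.5 and 144 CPM and *C4b* at 71.0 and 150 CPM. In the progenitor cluster *C3* was at 219 and 324 CPM, and *Serping1* at 298 and 518 CPM. The intervals of these log2 ratios did not include 0, whereas in cartilage, with 31 far spots, those of *C3* (-3.00 to 0.92) and *C4b* (-0.02 to 2.22) did, as did that of *C4b* in the progenitor cluster (-0.14 to 0.71).

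In the control callus each of the 8 genes was also higher at the edge than deep inside in both sections, although the interval of *C1ra* in section 2 (log2 ratio of 0.44, -0.14 to 1.02) included 0. Depth was counted in steps on the spot grid from the edge. An edge spot lacked at least 1 of its 6 neighbors in the same section and genotype. Such spots can also lie at gaps in the tissue or at the border of the array, which were not set apart from the outer tissue border. *C3* was at 155 CPM at the edge and 37.6 CPM at 6 or more steps in control section 1, and at 182 and 59.3 CPM in control section 2. *C1qa* was at 450 and 172 CPM in section 1 and at 479 and 271 CPM in section 2. The log2 ratio of edge to inner spots was thus 2.04 and 1.62 for *C3* and 1.39 and 0.82 for *C1qa*. The tissue differed with depth as well. Within 2 steps of the edge lay 83.1% of the control spots of region 8 but 16.8% of those of region 10 (regions described further on). The part of tissue in these levels was not tested.

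In section 2 of the Nf1Postn callus, *C3* was low at every depth. It was at 45.0 CPM at the edge, 22.9 CPM at 1 to 2 steps, 25.1 CPM at 3 to 5 steps and 35.2 CPM at 6 or more steps, and the log2 ratio of edge to inner spots was 0.35 (-0.27 to 0.98). *C1qa* ran opposite to the control there, with 256 CPM at the edge and 464 CPM at 6 or more steps (log2 ratio of -0.86). *C4b* kept a higher level at the edge in section 2 (log2 ratio of 1.58). In Nf1Postn section 1 only 6 spots lay 6 or more steps deep, so no ratio was read from them. Edge and inner spots were not the same tissue in both calluses. Within 2 steps of the edge lay 90.6% of the control but 34.7% of the Nf1Postn spots of region 11, with *C1qa* at 429 CPM in Nf1Postn section 2. Region 9, rich in muscle genes, had 85.8% of its Nf1Postn spots there, with *C1qa* at 162 CPM over both sections. The part of tissue was not tested.

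**Figure D3:**
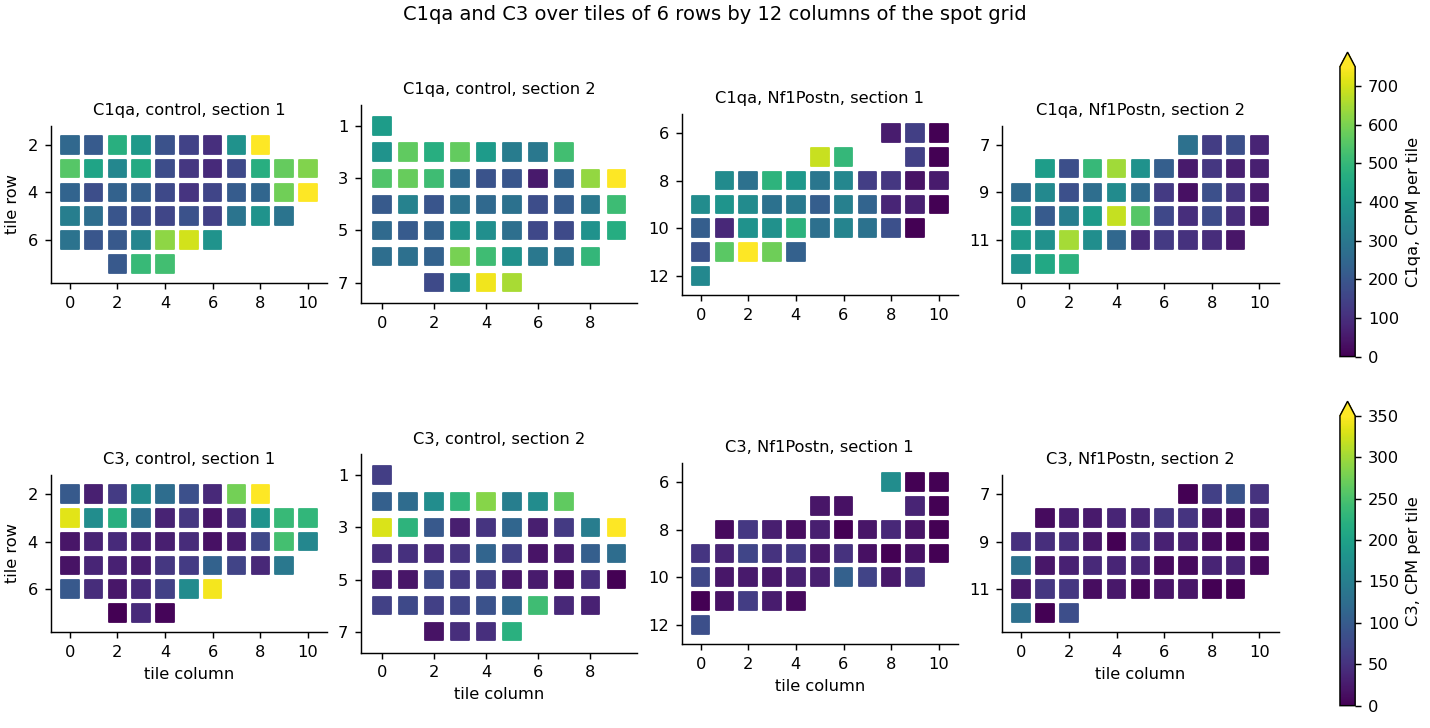
Level of *C1qa* (upper row) and *C3* (lower row) in CPM (color, capped at the top of the scale) over tiles of 6 rows by 12 columns of the spot grid with at least 15 spots, by genotype and section, with tile row and column on the axes. *C3* was high in part of the outer tiles of the control calluses, up to 395 and 628 CPM, while other outer tiles there were as low as 0 CPM. It reached 171 and 132 CPM in the Nf1Postn calluses, in tiles of 17568 and 45345 UMIs in which few *C3* UMIs were counted. *C1qa* reached 902 and 685 CPM in the Nf1Postn calluses.

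To set like tissue against like tissue, all 6380 spots were clustered on 16833 genes. The complement genes, the interferon response genes and the inflammatory and acute phase genes were left out. The cell type markers stayed in, so they had a part in defining the regions. Of the 14 regions, 7 held at least 20 spots of each genotype in each section. The 5 genes with the highest ratio to the other spots describe each of them: region 1 (*Crabp1*, *Gpnmb*, *Ccl7*, *Fbn2* and *Sfrp2*), region 4 (*Bglap*, *Hbb-bs*, *Hba-a2*, *Sost* and *Dmp1*), region 5 (*Hbb-bs*, *Hba-a2*, *Klhl31*, *Hspb6* and *Actn3*), region 6 (*Sost*, *Chad*, *Thbs4*, *Hbb-bs* and *Dmp1*), region 7 (*Ctss*, *Fbn2*, *Itga11*, *Sod3* and *Aebp1*), region 8 (*Cxcl14*, *Pi16*, *Cygb*, *Fabp4* and *Eln*) and region 11 (*Tnnt2*, *Myh8*, *Myl4*, *Tnni1* and *Csrp3*). Region 8 had 3 fibroblast markers among its 10 leading genes, and 80% of its section 1 control spots were progenitor spots. Of the spots of region 1 in that callus, 91.4% were ossifying perichondrium. Region 11 was led by genes of developing muscle such as *Myh8* and *Myl4*.

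With the genotypes pooled, region 8 had the highest level of each of the 8 genes, with 621 CPM for *C1qa* and 470 CPM for *Serping1*, although in section 2 alone *C1qb* and *Cfb* were highest in region 1. Within each genotype it was the highest for *C1qa*, *C1qc* and *C4b*. *C1qb* was at 236 CPM in region 8 and 244 CPM in region 1 of the control callus, and at 258 CPM in region 8 and 262 CPM in region 11 of the Nf1Postn callus, with overlapping intervals. The Nf1Postn levels of *C3* (67.2 CPM) and *C1ra* (38.4 CPM) were highest in region 6, with intervals that overlapped those of region 8. In the control callus *C1ra*, *Cfb* and *Serping1* had higher values than region 8 in regions 9 or 14, which rested on 1, 1 and 7 UMIs, and *C1ra* also in region 11 (29.6 against 28.3 CPM). Most spots of region 8 lay near the edge in both genotypes, with 83.1% of the control spots and 86.1% of the Nf1Postn spots within 2 steps of it. There *C1qa* was at 609 and 624 CPM in control and 639 and 615 CPM in Nf1Postn, and *Serping1* at 463 and 443 CPM in control and 528 and 448 CPM in Nf1Postn. The log2 ratio over both sections was 0.03 (-0.12 to 0.18) for *C1qa* and 0.11 (-0.06 to 0.28) for *Serping1*.

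*C3* in region 8 was at 311 and 290 CPM in control and at 32.7 and 67.7 CPM in Nf1Postn, from 247 and 159 UMIs against 18 and 34. Both Nf1Postn values lay far below both control values, 6.13-fold over both sections (log2 ratios of -3.25 and -2.10). Of the 7 complement genes with enough UMIs in region 8 *C3* was the only one at least 2-fold lower in both sections, and 0.413% of the 4601 genes tested there were. *C4b* was at 300 and 162 CPM in control and 116 and 167 CPM in Nf1Postn, lower in section 1 and equal in section 2 (log2 ratios of -1.37 and 0.04). *Cfb* was at 119 and 91.2 CPM in control and 87.1 and 61.7 CPM in Nf1Postn, and the intervals of its log2 ratios (-0.44 and -0.56) included 0. Over both sections the log2 ratio was -0.52 (-0.93 to -0.11) for *Cfb* and -0.79 (-1.08 to -0.51) for *C4b*.

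In region 8 the 12 macrophage markers summed to 849 and 965 CPM in control and 811 and 806 CPM in Nf1Postn, and the 10 fibroblast markers to 4931 and 4651 CPM in control and 3730 and 4620 CPM in Nf1Postn. The 7 adipocyte markers summed to 2078 and 1316 CPM in control and 866 and 1324 CPM in Nf1Postn, and the 8 neutrophil markers to 1308 and 195 CPM in control and 241 and 163 CPM in Nf1Postn. The 8 cartilage markers, at 8270 and 6866 CPM in control and 2735 and 2927 CPM in Nf1Postn, and the 10 inflammatory and acute phase genes, at 695 and 387 CPM against 403 and 217 CPM, were lower in Nf1Postn in both sections. So were the 8 endothelial markers, at 2001 and 1716 CPM against 1278 and 1203 CPM, and the 8 osteoclast markers, at 3579 and 3264 CPM against 2271 and 1625 CPM. The interferon response genes summed to 468 and 459 CPM in control and 330 and 536 CPM in Nf1Postn. The part of these lists in the level of *C3* was not tested.

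The difference was also present at equal depth per spot. With every spot drawn down to 1000 UMIs, *C3* was found in 21.2% (16.2% to 27.0%) of the 236 control spots of region 8 and in 5.83% (3.14% to 9.76%) of the 223 Nf1Postn spots. In regions 10 and 12, led by *Col10a1* and by *Ucma*, the control shares were 4.97% (3.02% to 7.66%) and 5.77% (3.02% to 9.86%), and the Nf1Postn share in region 8 lay within both intervals. Of the section 1 control spots of region 10, 77% were cartilage and 23% woven bone spots. In region 12, 50.3% were cartilage and 49.7% ossifying perichondrium spots. The median depth before thinning was 5682 and 4536 UMIs in the control and Nf1Postn spots of region 8, and 4192.75 and 12991.8 UMIs in the control spots of regions 10 and 12. *C1qa* was found in 43.2% of the control and 46.2% of the Nf1Postn spots of region 8, and in 12.3% and 11.5% of the control spots of regions 10 and 12.

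In region 1, the region of the ossifying perichondrium, 8 complement genes could be compared and *C3* and *Cfb* were at least 2-fold lower in both sections, as were 0.867% of 9225 genes. *C3* was at 121 and 164 CPM in control and at 13.7 and 24.6 CPM in Nf1Postn, from 4 and 11 Nf1Postn UMIs in 25 and 46 spots (log2 ratios of -3.14 and -2.73). *Cfb* was at 52.0 and 83.7 CPM in control and 20.6 and 26.9 CPM in Nf1Postn, from 6 and 12 Nf1Postn UMIs. Its log2 ratios were -1.34 (-2.80 to -0.19) and -1.64 (-2.61 to -0.82), with intervals that reached short of 2-fold. *C4b* was at 106 and 92.2 CPM in control and 24.0 and 47.0 CPM in Nf1Postn. All 3 genes were thus lower in Nf1Postn in both sections, *C4b* by just under 2-fold in section 2. *C1qa*, at 425 and 490 CPM in control and 291 and 528 CPM in Nf1Postn, and *Serping1*, at 266 and 289 CPM against 260 and 340 CPM, had log2 ratios over both sections of -0.07 (-0.24 to 0.09) and 0.15 (-0.05 to 0.35). The sections differed for *C1qa*, with -0.55 (-0.88 to -0.23) in section 1 and 0.11 (-0.09 to 0.30) in section 2. *C1qb* and *C1qc* were also lower in section 1, at -0.51 (-0.97 to -0.08) and -0.42 (-0.85 to -0.02), but not in section 2 (0.12 and 0.07). The interferon response genes of region 1 summed to 336 and 522 CPM in control and 230 and 275 CPM in Nf1Postn, and the inflammatory and acute phase genes to 752 and 561 CPM against 439 and 356 CPM. Other lists differed there as well. The cartilage markers summed to 18210.5 and 8802 CPM in control and 3139 and 8449 CPM in Nf1Postn, and the muscle markers to 6434 and 13969 CPM against 23286 and 16487 CPM. The adipocyte markers were at 622 and 617 CPM against 346 and 463 CPM, and the macrophage markers at 655 and 800 CPM against 610 and 730 CPM. The fibroblast markers were at 3005 and 3273 CPM against 2460 and 3074 CPM, and the endothelial markers at 1309 and 1381 CPM against 1223 and 943 CPM. The osteoclast markers were higher in Nf1Postn, at 2762 and 3227 CPM against 5160 and 3580 CPM. The part of these lists in the levels of *C3* and *Cfb* was not tested.

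Region 11, led by genes of developing muscle, had the most complement genes apart. Of the 7 tested, *C3*, *C4b* and *Cfb* were at least 2-fold lower in Nf1Postn in both sections, against 0.95% of 3474 genes. *C3* was at 239 and 188 CPM in control and 24.6 and 29.7 CPM in Nf1Postn, *C4b* at 181 and 87.4 CPM against 33.5 and 20.8 CPM, and *Cfb* at 101 and 108 CPM against 24.6 and 19.8 CPM. Their intervals did not overlap between genotypes, with folds of 7.22, 4.67 and 4.98 over both sections. *Serping1* was also lower, at 287 and 370 CPM in control and 208 and 180 CPM in Nf1Postn (log2 ratios of -0.47 and -1.04), and *C1qa* differed less, at 548 and 544 CPM against 453 and 429 CPM. The regulator *Clu*, from the list of other complement genes, was at least 2-fold lower there as well. In this region, 90.6% of the control spots but 34.7% of the Nf1Postn spots lay within 2 steps of the edge. The region thus did not lie at the same depth in both calluses. The 12 macrophage markers summed to 744 and 615 CPM in control and 607 and 549 CPM in Nf1Postn, the 10 fibroblast markers to 2941 and 3885 CPM against 2975 and 3533 CPM, while the interferon response genes were at 418 and 565 CPM in control and 239 and 280 CPM in Nf1Postn. Other lists moved with the genotype there in both sections. The osteoblast markers summed to 25243 and 21163 CPM in control and 12742 and 13431 CPM in Nf1Postn, the cartilage markers to 5302 and 5180 CPM against 1139 and 1744 CPM, and the muscle markers to 87181 and 97738 CPM against 120860 and 147169 CPM. The endothelial markers were at 1473 and 1102 CPM against 1076 and 839 CPM, and the osteoclast markers at 1960 and 1768 CPM against 1429 and 911 CPM. The inflammatory and acute phase genes were at 403 and 202 CPM against 328 and 164 CPM. The erythroid markers were higher in Nf1Postn, at 210 and 206 CPM against 308 and 684 CPM. Neither the part of these lists nor that of place was tested.

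In the other regions *C3* rested on few UMIs and did not reach the minimum. In region 5 it was at 322 and 133 CPM in control and 44.2 and 34.7 CPM in Nf1Postn (log2 ratios of -2.86 and -1.94), and in region 7 at 98.6 and 95.4 CPM against 43.8 and 41.9 CPM (-1.17, with an interval that included 0, and -1.19). In regions 4 and 6, both with *Sost* and *Dmp1* among their 5 leading genes, *C3* was not 2-fold lower in either section. *C3* was at 88.3 and 46.8 CPM in control and 47.6 and 39.1 CPM in Nf1Postn in region 4, and at 35.6 and 68.1 CPM against 108 and 44.7 CPM in region 6, with intervals that included 0. Of the complement genes with enough UMIs (4 in region 4, 4 in region 5, 1 in region 6 and 3 in region 7), 0 were at least 2-fold lower in both sections in these regions, while 0.186%, 0.112%, 0.649% and 0.512% of all genes tested there were. Counted without the minimum, *C3* was at least 2-fold lower in both sections in 5 of the 7 regions.

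**Figure D4:**
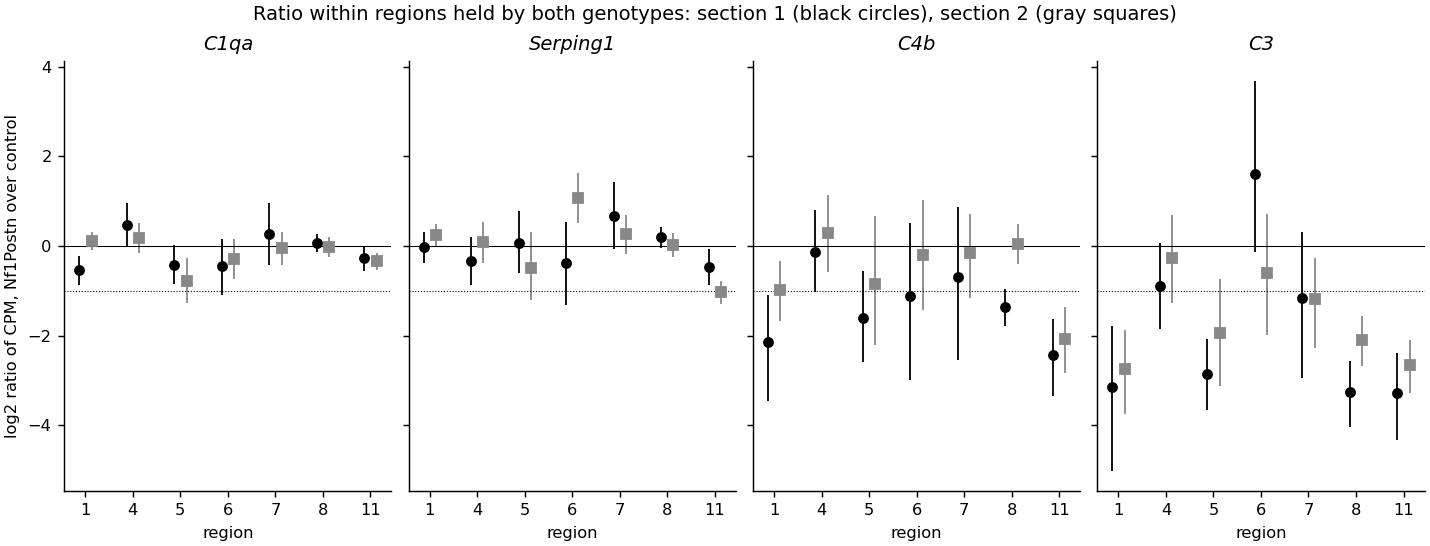
Log2 ratio of CPM, Nf1Postn over control (y axis), of *C1qa*, *Serping1*, *C4b* and *C3* within each region with at least 20 spots of each genotype in each section (x axis), section 1 as black circles and section 2 as gray squares, with exact 95% intervals for counting error. The dotted line marks 2-fold lower. *C3* lay below it in both sections in regions 1, 5, 7, 8 and 11, whereas *C1qa* stayed between -0.79 and 0.46 in all 7 regions. In regions 5 and 7 *C3* did not reach the minimum of UMIs.

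The level of *C3* spanned a narrower range over the Nf1Postn callus than over the control callus. In the regions with at least 20 Nf1Postn spots it was between 15.7 and 67.2 CPM, with 49.4 CPM in region 8, although the values of regions 3, 10 and 14 rested on 3, 3 and 1 UMIs. In the control callus *C3* was at 303 CPM in region 8, 223 CPM in region 5 and 203 CPM in region 11, and at 43.1 and 33.5 CPM in regions 10 and 12, led by cartilage genes. *C1qa* kept a wide range in the Nf1Postn callus, up to 628 CPM in region 8. It was lowest in region 14, at 64.0 CPM from 3 UMIs, and at 65.8 CPM in region 13, led by the muscle genes *Ckm* and *Myh2*.

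Likeness of pattern was measured by Spearman's rho of CPM over tiles, computed in each section and genotype over 51, 52, 44 and 49 tiles and averaged. Tiles of one section are neighbors in 1 tissue and share its library, so rho is given as a description. The C1q chains were the most alike, with mean rho of 0.83 (*C1qa* and *C1qc*), 0.82 (*C1qa* and *C1qb*) and 0.80 (*C1qb* and *C1qc*). *C3* was less like them, at 0.44 with *C1qa*, 0.38 with *C1qb* and 0.43 with *C1qc*.

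Among 3481 genes, those most like *C1qa* besides the other chains were *H2-Ab1* (0.82), *Selenop* (0.82) and *Cd74* (0.81), of which *H2-Ab1* and *Cd74* serve antigen presentation by class II molecules. *Apoe* was most like *C1qb* (0.79) and *C1qc* (0.77) after the chains, followed by *Selenop* and *Cd74* for *C1qb* (0.74 and 0.73) and by *Cebpa* and *Selenop* for *C1qc* (0.75 and 0.74). *Serping1* was most like *Ahnak* (0.81), *S100a6* (0.77), *Igfbp4* (0.77), *Mxra7* (0.75) and *Mfap4* (0.75). *Cfb* was most like *Igfbp4* (0.67), *S100a6* (0.67), *C1qc* (0.67), *C1qa* (0.66) and *Ly6e* (0.66), and *C4b* like *Igfbp4* (0.64), *Serping1* (0.63), *Gas6* (0.60), *Eln* (0.58) and *Entpd2* (0.58). *C1ra*, at few UMIs per tile, was most like *Lamp2* (0.57), *S100a6* (0.55), *Serping1* (0.55), *Col14a1* (0.54) and *B2m* (0.54). The genes most like *C3* were *Gas6* (0.60), *Mrc1* (0.59), *Eln* (0.53), *Fst* (0.53) and *Emb* (0.52), all with higher rho in control than in Nf1Postn.

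The summed macrophage markers had a mean rho of 0.70 with *C1qa*, 0.46 with *Serping1* and 0.26 with *C3*. The fibroblast markers had 0.76 with *C1qa*, 0.78 with *Serping1* and 0.51 with *C3*. The tile's total of UMIs had a mean of 0.17 with *C1qa*, but ran from -0.28 to 0.72 over the combinations of section and genotype. With *C3* it had 0.09 (-0.06 to 0.23). The summed interferon response genes had 0.68 with *C1qa*, 0.62 with *Cfb* and 0.37 with *C3*.

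The likeness of *C3* to the other complement genes was lower in the Nf1Postn callus in all 7 pairs. With *C4b*, its rho was 0.79 and 0.73 in the control sections and 0.25 and 0.41 in the Nf1Postn sections, and with *Cfb* it was 0.69 and 0.64 against 0.29 and 0.25. Of the 21 pairs without *C3*, 13 were lower in Nf1Postn, and the C1q chains kept 0.71 to 0.87 there. A median tile held 62576.5 and 112125.5 UMIs in the Nf1Postn sections and 248140 and 221681 in the control sections, so that few *C3* UMIs fell in a Nf1Postn tile, and the part of this depth in the lower rho was not tested.

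**Figure D5:**
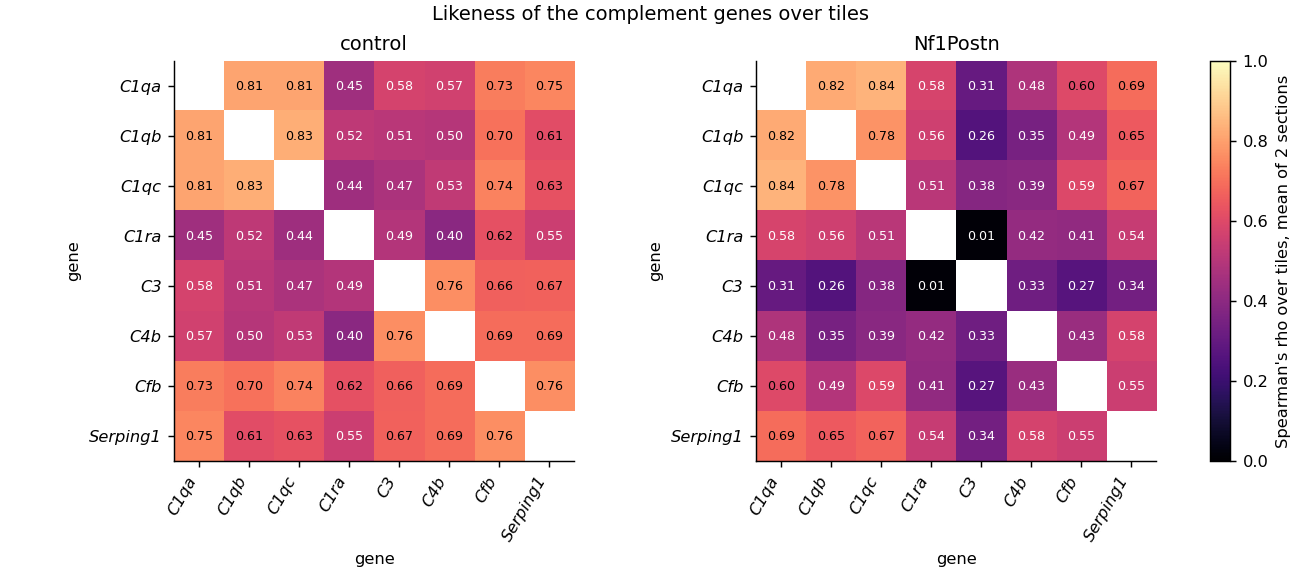
Spearman's rho over tiles between each pair of complement genes (color and number, mean of both sections), control at left and Nf1Postn at right, with the genes on both axes. Pairs of C1q chains were between 0.78 and 0.84 in both genotypes, and *C3* with *C4b* was 0.76 in control and 0.33 in Nf1Postn.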

How the data were processed

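Visium libraries for formalin-fixed tissue were made from 2 samples, handled as sections of the same block. The authors aligned reads to mm39 with Space Ranger (version 1.3.0 per the labels' processing notes) and exported the tables from Partek Flow. The authors deposited raw UMI counts of each gene in each spot, treated here as having the form of an estimated count, because symbols that join several Ensembl IDs hold values that are not whole, which were rounded for thinning. Spot positions and the genotype of each spot were used as deposited, and cluster and SpatialTime of 1344 control spots came from the authors' supporting values, joined by barcode. 1 row without a symbol (6.81e-05% and 3.76e-05% of UMIs) was left out, and 5 spots without a genotype were clustered but entered no comparison.

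A gene was compared where both genotypes together had at least 50 UMIs in each section, and was called where it was at least 2-fold apart the same way in both. A group at 0 was given 3 counts. Regions came from log2(CPM + 1), centered per section, 20 principal components, a graph of the 15 nearest neighbors weighted by the neighbors they share, and Leiden clustering at resolution 0.5 (leidenalg 0.10.2, Python 3.11.15, scipy 1.17.1), on genes in at least 0.3% of spots. Likeness used genes that had 200 UMIs or more in all 4 combinations of section and genotype. The genes named are the 8 complement genes, the other complement genes past 2-fold or with the most UMIs of each role, 5 genes per member by rho and 5 leading genes per region. The ratio and the likeness were tested on simulated data. The members and lists were chosen with earlier results of these data known, and no p-value was computed. Results of 1 complement regulator and of 1 further promoter motif are not reported here.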

Additional observations from a re-analysis of the deposited data

How the results depend on the processing

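No test, paired or not, was run, because the samples were handled as sections of 1 mouse per genotype. The ratios given by section set the Nf1Postn callus against the control callus of the same section. Of the complement genes described, 0 were at least 2-fold higher in Nf1Postn in both sections under every alternative tried, and *C3* kept its direction in all of them. Its log2 ratios went from -1.29 without the muscle-rich regions to -2.25 in an alternative chosen after seeing the data. That alternative used only the 7 regions with at least 20 spots of each genotype in each section, and weighted the control levels by the UMIs of the Nf1Postn callus in each region. The number that was lower (1) became 7 with the mean of log2(CPM + 1) over spots, 2 at 1.5-fold, and 1 to 2 from a single section. Among the other complement genes, the number lower (0) became 3 with that mean and 0 to 1 from a single section, and the number higher (1) became 0 with that mean and when thinned to 1000 UMIs, 7 with no minimum of UMIs, 2 at 1.5-fold and 1 to 2 from a single section. Of all genes, those lower (187) became 337 with TMM factors, 2527 with that mean, 755 at 1.5-fold, 48 without the muscle-rich regions and 272 to 731 from a single section. Those higher (499) became 72 with that mean, 2784 with no minimum, 972 at 1.5-fold, 292 without the muscle-rich regions and 698 to 764 from a single section. The cause of these shifts was not tested.

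Counted without the minimum of UMIs, *C3* was at least 2-fold lower in both sections in 5 regions. With the minimum this held in regions 1, 8 and 11. The count without it was 4 at resolutions 0.3 and 1.0 and with all genes kept in the clustering. It was 5 with spots of at least 1000 UMIs and from each section alone. The number of regions compared can differ between clusterings. These alternatives were chosen after seeing the data, and no share over all genes was computed for them. Of the other values, the region with the highest level changed with the clustering, and region numbers do not carry over between clusterings. The log2 ratio of far to near spots of *Cfb* was 0.29, and -0.26 with the mean of log2(CPM + 1). Few UMIs limit *C1ra* and *C3* in single regions of the Nf1Postn callus.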

Other observations

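Some listed genes differed between sections of the same genotype. In region 8 of the control callus, the 8 neutrophil markers summed to 1308 CPM in section 1 and 195 CPM in section 2, and *Cfp* and *Cfd* together to 531 and 210 CPM. The 5 spots without a genotype held 0 UMIs of the C1q chains and 2 UMIs of *Serping1*, and with so few spots no level was read from them.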
